A study of Rattus norvegicus with 4 samples.

Results

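Kv1 channel and Kv beta subunit transcripts were followed in cultured rat cortical neurons before and after depolarization. The set comprised every probe set (the group of short probes that reads one transcript) whose symbol in the platform annotation was Kcna1, Kcna2, Kcna3, Kcna4, Kcna5, Kcna6, Kcnab1 or Kcnab2. It held 11 of the 1263 probe sets that were not Affymetrix controls, and 7 of the 720 genes named on the array. Kcna1, Kcna2, Kcna4 and Kcna6 had 2 probe sets each, Kcna3, Kcna5 and Kcnab1 had 1 each, and Kcnab2 was not analysed here because no probe set carried its symbol.

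The neurons came from rat cortex at embryonic day 17 and were cultured for 14 days in serum-free medium with a neuronal supplement. The control group (2 arrays, control 1 and control 2) received phosphate-buffered saline for 4 h, and the KCl group (2 arrays, KCl 1 and KCl 2) received 25 mM KCl for 4 h. No strain, genotype or sex was given, and the groups follow the titles and treatment protocols, while the description label words all 4 samples as unstimulated. The labels do not say if samples of one group were separate cultures, so the spread behind every p-value may be technical.

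Kv1 channels are voltage-gated potassium channels built from pore subunits that assemble in fours, often of mixed type, and that are targeted largely to axons and terminals, where they open near the threshold for firing and limit excitability. Kv beta subunits bind the cytoplasmic side of Kv1 pores, help their surface delivery and resemble aldo-keto reductases. The product of Kcnab1 is known for an N-terminal ball that plugs the open pore, which turns a sustained Kv1 current into a rapidly inactivating one.

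All 4 arrays stood at one overall level as deposited, with 2% trimmed mean intensities of 502.0 to 502.4 (arbitrary units). As a check of the treatment, the brightest probe set of Fos, an activity-regulated transcription factor gene, rose by 3.85 ± 0.11 in log2 (SE; adjusted p from limma = 9.2e-08). Nr4a1 and Junb, immediate-early genes as well, rose by 3.31 and 2.99. The 19 control probe sets for bacterial and yeast RNA had a median of 9.05 over the 4 arrays and reached at most 73.7. Values up to that highest value are called within background. Of the 7 neuron markers tested, which included Map2, Nefl and Syn1, none lay within this background. Cultures are mixed, and fewer cells of a type and less RNA per cell cannot be told apart in these bulk samples.

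At rest, Kcnab1 had the brightest of the 11 probe sets, followed by Kcna1, Kcna4, Kcna6 and Kcna5, and those of Kcna2 and Kcna3 were the dimmest. Probe sets differ in how strongly their probes bind, so this is an order of probe set intensities and not of transcript numbers. Even the 2 probe sets of 1 gene, Kcna1, stood at places 2 and 8 in the order, and the reason for this gap was not tested.

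The Kcnab1 probe set (X70662_at) read 287.6 on control 1 and 274.1 on control 2, a mean of 280.9 ± 9.5 (SD, n = 2), and 67.9% of the 1263 probe sets were dimmer. Its control values lay above those of every Kv1 pore probe set. Kcna1, the gene of the low-threshold Kv1.1 pore, followed with 186.1 and 134.4 on the brighter of its probe sets (X12589cds_s_at, mean 160 ± 37, SD, n = 2). Kcna4, which encodes a Kv1 pore that carries an inactivation ball of its own, read 154.9 and 100.3 on M32867_at. On X16002cds_s_at it read 137.9 and 115.3. The control values of Kcna1 and of both Kcna4 probe sets overlapped, so their order is not resolved by 2 arrays.

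Kcna6, the gene of Kv1.6, read 80.0 and 112.8 on M27159cds_s_at and 47.8 and 90.4 on X17621cds_at. Kcna5, whose product Kv1.5 is best known from heart muscle, read 62.5 and 87.6 (M27158cds_at). The values of these 3 probe sets overlapped, and those of M27159cds_s_at also overlapped with M32867_at of Kcna4. The second Kcna1 probe set (M26161_at) read 31.0 and 6.6, the Kcna2 probe sets 22.8 and 12.7 (J04731_at) and 5.4 and 6.6 (X16003cds_s_at), and the Kcna3 probe set 15.5 and 8.8 (M30312cds_s_at). These 4 lay at or below the highest background value on all 4 arrays, so the order among them carries no information on the transcripts.

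Kcna2 encodes Kv1.2, a common partner of Kv1.1 in axons, and Kcna3 encodes Kv1.3, best known from lymphocytes. For both genes these data give no level that can be told from background. In all, 4 of the 11 probe sets were above the highest background value on all 4 arrays (Kcnab1, X12589cds_s_at of Kcna1 and both of Kcna4) and 3 were above it on some arrays only (both of Kcna6, and Kcna5).

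**Figure D1:**
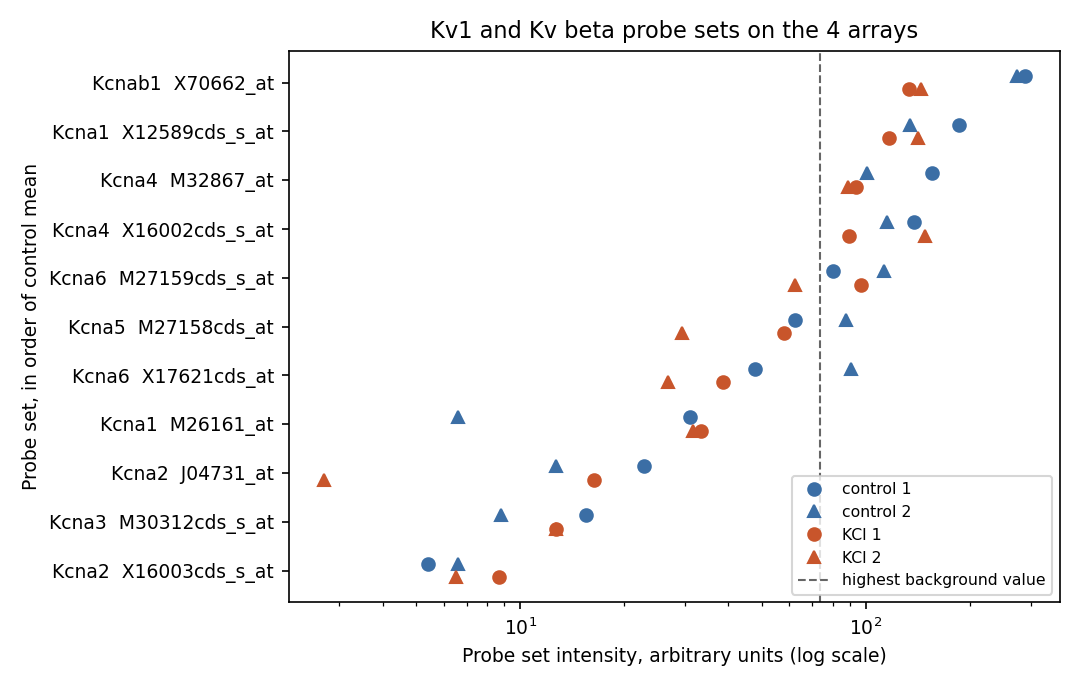
Intensity of the 11 Kv1 and Kv beta probe sets on each array (horizontal log axis, arbitrary units), ordered by control mean from top to bottom; circles are replicate 1, triangles replicate 2, blue control, orange KCl, and the dashed line is the highest background value (73.7). Kcnab1 stands apart in the controls, at 274.1 and 287.6, and moves to 133.1 and 144.2 after KCl, among the values of Kcna1 and Kcna4.

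After KCl, Kcnab1 fell 2.03-fold and no other member passed the test. KCl was compared with control by limma on log2 intensities, over the 947 probe sets left after the dimmest 25% were dropped, and a probe set was called higher or lower at a Benjamini-Hochberg adjusted p below 0.05. Of the 11 members 7 entered this test and 4 were left out as dim. Of the 7, 1 was called lower, where 5.28% of all tested probe sets were called lower, and 0 were called higher, where 5.49% were. With 7 members these shares cannot be told apart from the background. With no adjustment (p below 0.05) limma again gave 1 lower and 0 higher. Of all tested probe sets 16.3% and 9.29% had such a p. An ordinary t statistic gave the same member counts, where 157 of the 947 had such a p in either direction.

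Kcnab1, the gene of the beta subunit that confers inactivation, read 287.6 (control 1), 274.1 (control 2), 133.1 (KCl 1) and 144.2 (KCl 2). Both KCl values lay below both control values, and the arrays of each group lay close together. The log2 change was -1.02 ± 0.19 (SE; 95% interval -1.46 to -0.58; limma adjusted p = 0.011). With 2 arrays against 2, an exact permutation test cannot give a two-sided p below 0.33. The call thus depends on a model of the variance, here one shared across probe sets. It was lost in 5 of the 14 alternatives, among them those without control 1 (adjusted p = 0.18), without control 2 (0.19), without the intensity trend in limma's variance (0.069) and with an ordinary t statistic (0.17), while the change itself stayed between -1.08 and -0.94 in all 14 alternatives.

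Other signals moved on the same arrays. The summed intensity of 7 astrocyte markers was 5484 and 5220 in the controls and 12551 and 9974 after KCl, with 6 called higher and none lower. Of 5 inhibitory neuron markers 3 were called lower (Gad1, Slc32a1 and Sst). The others, Npy and Cck, went the other way, with log2 changes of 0.23 and 0.11, and were not called. The summed intensity of the 5 went from 15204 and 15103 to 10096 and 10729. That of 7 neuron markers was 23087 and 23301 in the controls and 22379 and 22226 after KCl, with 1 called higher. The ratio of 3′ to 5′ signal of hexokinase, which tracks how intact the RNA was, stood at 2.25 and 2.00 in the controls and 2.49 and 2.67 after KCl, and those of Gapdh and β-actin overlapped between the groups. The part of any of these in the fall of Kcnab1 was not tested.

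Among the pore subunits, Kcna1 read 186.1 and 134.4 in the controls and 116.2 and 141.6 after KCl (X12589cds_s_at). The groups overlapped, with KCl 2 above control 2, and the log2 change of -0.30 ± 0.26 (SE; 95% interval -0.89 to 0.29; limma adjusted p = 0.52) did not pass. The other Kcna1 probe set, left out as dim, read 31.0 and 6.6 in the controls and 33.3 and 31.6 after KCl, all within background.

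The 2 probe sets of Kcna4 gave unlike patterns. On M32867_at the control values of 154.9 and 100.3 lay above the KCl values of 93.8 and 88.8, with a log2 change of -0.45 ± 0.30 (95% interval -1.14 to 0.24; limma adjusted p = 0.39). On X16002cds_s_at the control values of 137.9 and 115.3 lay between the KCl values of 89.4 and 147.7, with a log2 change of -0.13 ± 0.31 (95% interval -0.84 to 0.57; limma adjusted p = 0.81). The KCl arrays thus lay close together on one probe set and far apart on the other. Neither change passed, and without KCl 1 the change on X16002cds_s_at was 0.23.

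The probe sets of Kcna5 and Kcna6 lay near the background, and their intervals were the widest. Kcna5 read 62.5 and 87.6 in the controls and 57.8 and 29.3 after KCl, with a log2 change of -0.85 ± 0.48 (limma adjusted p = 0.30). For Kcna6, X17621cds_at read 47.8 and 90.4 and then 38.6 and 26.8, with a log2 change of -1.03 ± 0.53 (limma adjusted p = 0.25). That is the size of the change of Kcnab1, at an SE of 0.53 in place of 0.19. On these 2 probe sets both KCl values lay below both control values and within background, so the fold depends on that background. The brighter Kcna6 probe set, M27159cds_s_at, read 80.0 and 112.8 and then 96.5 and 62.1, with overlapping groups and a log2 change of -0.30 ± 0.36 (limma adjusted p = 0.66), which was 0.02 without KCl 2.

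**Figure D2:**
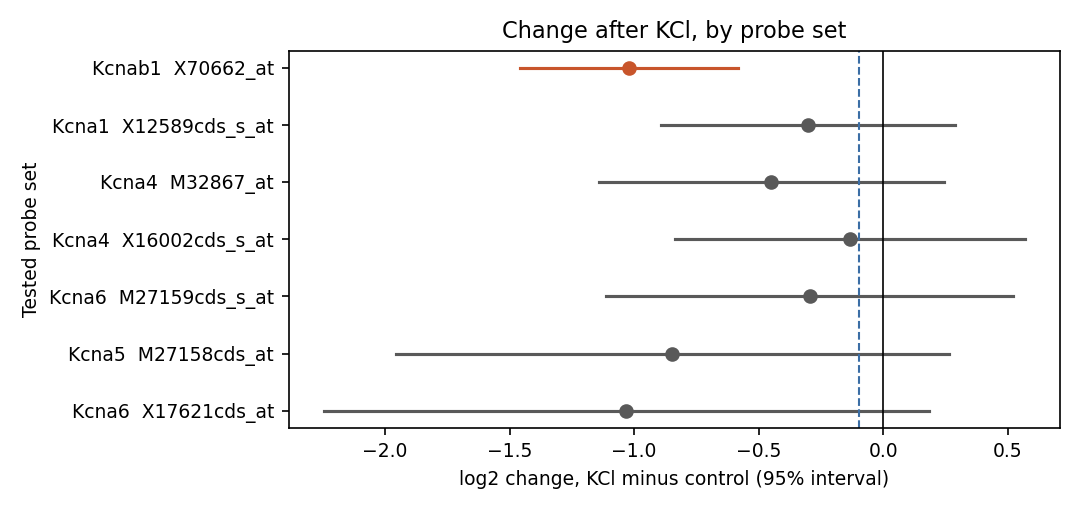
Log2 change after KCl (KCl minus control, horizontal axis) of the 7 tested Kv1 and Kv beta probe sets, with limma's 95% intervals as bars; orange marks the probe set called, the solid line is 0 and the dashed line the median over all 947 tested probe sets (-0.10). The interval of Kcnab1, -1.46 to -0.58, lies wholly below 0, and the other 6 intervals include 0.

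All 7 tested members had a log2 change below 0, with a median of -0.45, and 60.3% of the 947 tested probe sets were below 0, with a median of -0.10. The 7 are probe sets of 5 genes, not independent samples. The count of 7 held under quantile normalization. It also held under median centring and scaling to 1 trimmed mean. These hardly moved the changes, because the arrays stood at one level as deposited, so they could hardly have altered the count. Both KCl values lay below both control values in 4 of the 7 (Kcnab1, Kcna5, M32867_at of Kcna4 and X17621cds_at of Kcna6), where 36.5% of tested probe sets did so, and above them in 0, where 21.4% did.

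The 4 dim probe sets moved both ways. J04731_at of Kcna2 read 22.8 and 12.7 in the controls and 16.3 and 2.7 after KCl, and X16003cds_s_at of the same gene read 5.4 and 6.6 and then 8.7 and 6.5. Kcna3 read 15.5 and 8.8 in the controls and 12.7 on both KCl arrays. The KCl values lay above both control values on M26161_at of Kcna1 and overlapped them on the other 3; over all 1263 probe sets 21.3% lay above and 31.3% below. With dim probe sets kept in the test, none of the 4 passed (limma adjusted p from 0.44 to 0.93), and 0 had a p below 0.05 before adjustment. Their intervals were wide, running for J04731_at from -3.53 to 0.81.

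Whether Kcnab1 changed by more than the Kv1 pore subunits was tested on the ratio of 2 probe sets within each array. Limma was fitted to the log2 ratios of all 363378 pairs of tested probe sets with 1 symbol, of which 6.98% were called. Of the 21 pairs among the members 0 were called (lowest limma adjusted p = 0.25), and without adjustment 0 had a p below 0.05 in limma or with an ordinary t statistic. A fall particular to Kcnab1 is therefore not shown by these arrays, although Kcnab1 alone passed the test against control.

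The change of Kcnab1 minus that of Kcna1 was -0.72 ± 0.36 in log2 (95% interval -1.59 to 0.16). Against X16002cds_s_at of Kcna4 the difference was -0.89 ± 0.40 (95% interval -1.84 to 0.07), the lowest p of the 21. Against M32867_at of Kcna4 it was -0.57 ± 0.40 and against M27159cds_s_at of Kcna6 -0.72 ± 0.46. Against Kcna5 and X17621cds_at of Kcna6 the differences were -0.17 ± 0.55 and 0.01 ± 0.55. The intervals of the 21 differences spanned from 1.75 to 3.42 log2 units, so they leave room for differences of several-fold as well as for none. The 2 pairs within a gene did not pass either, with 0.74 ± 0.57 for Kcna6 (M27159cds_s_at minus X17621cds_at) and -0.32 ± 0.48 for Kcna4 (M32867_at minus X16002cds_s_at).

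**Figure D3:**
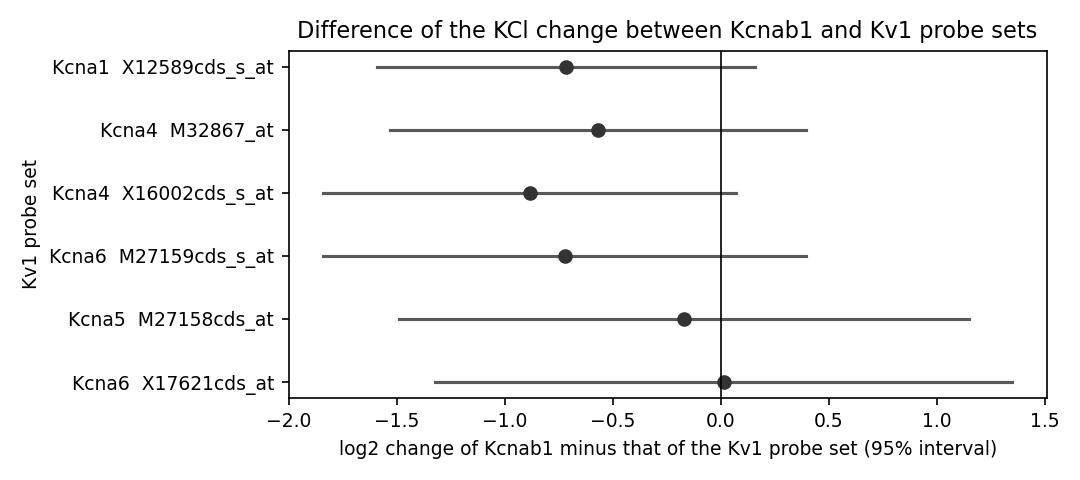
Log2 change of Kcnab1 after KCl minus that of each of the 6 tested Kv1 pore probe sets (horizontal axis), with limma's 95% intervals as bars and a line at 0. Differences run from -0.89 to 0.01 and all 6 intervals include 0.

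With the fall of Kcnab1, the order at the top closed up. After KCl its values of 133.1 and 144.2 overlapped with those of Kcna1 (116.2 and 141.6) and of X16002cds_s_at of Kcna4 (89.4 and 147.7), which they had not done at rest. Means after KCl were 139 ± 8 for Kcnab1, 129 ± 18 for Kcna1 and 119 ± 41 for X16002cds_s_at (SD, n = 2). The pairwise tests above are the tests of this shift, and they did not pass.

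The other voltage-gated potassium channel genes moved both ways. Of 34 other pore and modulatory subunit genes listed, 19 were tested, 1 was called higher and 1 lower, where 5.09% of all 570 tested genes were called in each direction, so these counts are near that background. Before adjustment limma gave 7 of the 19 a p below 0.05 as lower and 1 as higher. Of all tested probe sets 16.3% and 9.29% had such a p in limma. An ordinary t statistic gave 3 lower and 1 higher, where 157 of all 947 tested probe sets had such a p in either direction. The log2 change was below 0 in 12 of the 19, where 59.8% of the 570 tested genes were below 0. The median log2 change of the 19 was -0.28, against -0.09 over the brightest probe sets of the 570 genes. Kcnf1, the gene of a modulatory subunit that is silent alone, read 186.8 and 183.6 in the controls and 513.7 and 470.4 after KCl. Kcnc2, which encodes a Kv3 pore of fast-spiking neurons, read 222.1 and 149.2 and then 37.2 and 51.5. Both KCl values lay within background, so the size of this fall depends on that background. The other Kcnc2 probe sets lay within background in both groups. Next by p, without passing in limma, came Kcnh3, which encodes an EAG-family pore (log2 change -0.39 ± 0.11, adjusted p = 0.057). A dimmer Kcnh3 probe set had a log2 change of 0.11 ± 0.27 (limma adjusted p = 0.83). The silent subunit genes Kcnv1 (-0.79 ± 0.25, 0.086) and Kcns3 (-2.42 ± 0.81, 0.10) followed. Kcns3 read 14.6 on KCl 1, within background, and 120.7 on KCl 2, so its change rests largely on KCl 1. Of 11 other auxiliary subunit genes 1 was tested, Kcne1, with a log2 change of 0.68 ± 0.32 that did not pass (limma adjusted p = 0.22). Leaving out either control array ended the calls of Kcnf1 and Kcnc2, as did an ordinary t statistic (adjusted p = 0.14 and 0.29), and that of Kcnc2 was also lost without the intensity trend (0.069). The count of lower genes rose when either KCl array was left out, and so did the count of lower calls over all tested probe sets.

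Proteins that cluster or regulate Kv1 channels formed another list. Of 17 genes, 7 were tested, 2 were called lower and 0 higher, where 5.09% of all tested genes were called in each direction. Before adjustment 3 were lower and 0 higher at p below 0.05, in limma and with an ordinary t statistic. In limma 16.3% and 9.29% of all tested probe sets had such a p. With an ordinary t statistic 157 of the 947 had one, in either direction. All 7 had a log2 change below 0, with a median of -0.26, and 59.8% of the 570 tested genes were below 0, with a median of -0.09, so nothing particular to this list is read from the count. Ptk2b, which encodes a calcium-activated tyrosine kinase that acts on Kv1.2, read 689.5 and 664.5 in the controls and 382.0 and 485.7 after KCl, a log2 change of -0.65 ± 0.16 (limma adjusted p = 0.033). Chrm1, the gene of the M1 muscarinic receptor, read 172.8 and 195.2 and then 91.7 and 83.2, with a log2 change of -1.07 ± 0.24 (limma adjusted p = 0.025) on M16406cds_s_at, and its other probe set lay within background on all 4 arrays. Both calls were lost without control 1, without control 2, without the intensity trend (adjusted p = 0.17 for Ptk2b and 0.069 for Chrm1) and with an ordinary t statistic (0.32 and 0.23). That of Ptk2b was also lost without KCl 1, and with quantile normalization (adjusted p = 0.094) or dim probe sets kept (0.062). A dimmer Ptk2b probe set was called lower as well with all 4 arrays (log2 change -0.87 ± 0.19, limma adjusted p = 0.025).

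Scaffold genes did not pass. Dlg3, which encodes a scaffold of the PSD-95 family, had a log2 change of -0.66 ± 0.20 (limma adjusted p = 0.080), and passed as lower without KCl 2 (0.049). Dlg4, the gene of PSD-95, which clusters Kv1 channels, had -0.23 ± 0.11 (limma adjusted p = 0.24). Prkcz, the gene of a protein kinase C that is linked to Kv beta subunits through an adaptor, had -0.26 ± 0.12 on its brightest probe set and was called lower on a dimmer one (-1.05 ± 0.26; limma adjusted p = 0.037).

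The probe sets whose values followed Kcnab1 most closely were sought among 846 tested probe sets of other genes, by the root mean square difference of log2 values, each centred on its control mean, over the 4 arrays. The nearest, at 0.013, was one of 2 probe sets of Sst, the somatostatin gene (K02248cds_s_at), which read 1536.2 and 1473.7 in the controls and 717.2 and 786.0 after KCl. Next came a probe set of Mapk9, which encodes the kinase JNK2, at 0.12 and Chrm1 at 0.13. The other Sst probe set had a log2 change of -1.55, so the likeness belongs to a probe set and not to the gene. With 4 arrays in 2 groups, this measure reflects mainly the size of the change and which array of a pair was higher, and it carries no test.

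**Figure D4:**
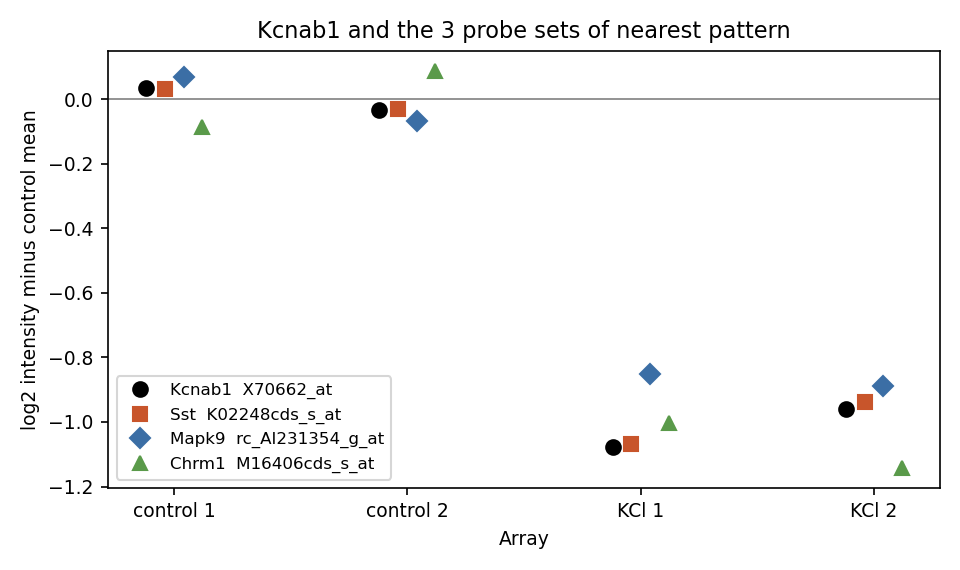
Log2 intensity minus the control mean (vertical axis) on each of the 4 arrays (horizontal axis) for Kcnab1 and the 3 probe sets nearest to it. The points of Kcnab1 and of Sst K02248cds_s_at all but coincide, with a root mean square difference of 0.013.

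The stretch before the start of Kcnab1 is shown because it is the 1 member gene called, on arrays where Fos, Junb and Crem, whose products bind AP-1 and cAMP response elements (CRE), rose. RefSeq's table on the GRCr8 build had a promoter for 7 of the 8 member genes, Kcna1 not among them. The 250 bases before the start of Kcnab1 lie at chr2:151614301-151614550 on the plus strand. They read as follows, 5′ to 3′, with TGACG, the core of a CRE, in capitals.
Kcnab1: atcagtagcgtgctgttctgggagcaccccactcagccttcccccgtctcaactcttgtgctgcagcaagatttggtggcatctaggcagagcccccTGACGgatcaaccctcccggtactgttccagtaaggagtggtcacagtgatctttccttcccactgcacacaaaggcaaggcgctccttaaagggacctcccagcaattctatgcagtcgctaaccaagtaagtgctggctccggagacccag

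The core stood 153 to 149 bases before the start. On either strand it occurs in 18.2% of all 33469 promoter windows of this length. The full CRE (TGACGTCA, which contains the core; 1.59% of windows) and the AP-1 site (TGANTCA; 6.34%) had no match in this window, and none of the 3 motifs matched in the windows of Kcna2, Kcna3, Kcna4, Kcna5, Kcna6 or Kcnab2. A match is a run of letters and not a shown binding site. RefSeq lists several transcripts of Kcnab1, and the array does not tell from which start they came. In the same assembly Kcna5, Kcna1 and Kcna6 follow one another among the protein-coding genes, as do Kcna3 and Kcna2. Of the first group, Kcna1 and Kcna6 on their brightest probe sets each had a log2 change of -0.30 and Kcna5 had -0.85, and none passed.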

How the data were processed

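The table deposited by the authors holds 1 linear-scale intensity per probe set and array. Per the labels' protocols, biotin-labelled cRNA from 5 µg of total RNA was hybridized to 1-colour Affymetrix arrays; for the probe set algorithm and the scaling, no statement is given in the sources used here. Intensities were taken to log2 as deposited. Of 1322 probe sets, 59 controls were left out; of the other 1263, the platform annotation gave 1 symbol to 1137, several to 8 and none to 118. The dimmest 25% by mean over the 4 arrays (means up to 33.3) were not tested. Limma 3.58.1 (R 4.3.3) was used with eBayes and an intensity trend, two-sided, without a replicate block, and was tested on simulated data. A gene in a list entered through its brightest probe set. Named were all members, of each pathway list the called genes and up to 3 others with the smallest p, 3 probe sets of nearest pattern, and Fos, Nr4a1 and Junb. Crem and the named cell type markers were picked with their values already seen. Members, lists and tests were chosen with earlier results of these data known. The number of arrays limits the precision. Alternatives covered scaling, a pseudocount, filters, a replicate block, the variance model, 1 probe set per gene and each array left out.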

Additional observations from a re-analysis of the deposited data

How the results depend on the processing

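The log2 change of Kcnab1 kept its sign in 14 of 14 alternatives and its call in 9. Its value was -1.02 with the replicate block (adjusted p = 0.056), without the intensity trend (0.069) and with an ordinary t statistic (0.17), and ran from -1.08 to -0.96 with each array left out. The count of members called lower was 0 in those 3 settings and 0 to 1 with each array left out. No member was called higher in any of the 14. No member pair differed in the 11 run for pairs, and filters and 1 probe set per gene were not run for pairs. Median centring and scaling to 1 trimmed mean cancel in a within-array ratio, so they could not alter the pair results. They also left the member changes all but the same, since the arrays stood at one level as deposited. Over all probe sets the 50 lower calls became 31 with quantile normalization, 33 without the filter, 15 with the replicate block, 3 without the trend, 0 with an ordinary t statistic (157 had an unadjusted p below 0.05, both directions) and 29 with 1 probe set per gene, and 1 to 106 with each array left out. The 52 higher calls became 18 without the trend, 0 with an ordinary t statistic and 29 with 1 probe set per gene, and 10 to 72 with each array left out. Lower calls made up 49.0% of all calls as deposited and 40.3% with quantile normalization. Among other Kv genes the lower count was 0 with the replicate block, without the trend and with an ordinary t statistic, and 0 to 4 with each array left out; the higher count was 0 with an ordinary t statistic and 0 to 1 with each array left out. Among clustering and regulating proteins the lower count was 1 with quantile normalization and without the filter, 0 with the replicate block, without the trend and with an ordinary t statistic, and 0 to 3 with each array left out. Leaving out an array or adding a block leaves fewer degrees of freedom. Lower calls over all probe sets became fewer without a control array and more without a KCl array. The cause of these shifts was not tested. The values gave no sign that the replicate numbers pair the samples. The differences of replicate 1 and 2 in the controls and in the KCl group had a correlation of -0.03 across probe sets. With 2 arrays per group, this value cannot exclude a pairing. Signal near background limits Kcna5 and Kcna6, and Kcna2 and Kcna3 have no level above it.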
